A study of Mus musculus with 12 samples.

Results

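SR splicing factors and heterogeneous nuclear ribonucleoproteins (hnRNPs) were followed in NIH3T3, an immortal mouse fibroblast line, whose cells were depleted of polyamines with difluoromethylornithine (DFMO). The members were all genes with a symbol beginning Srsf and a number, or beginning Hnrnp, whose array feature (a transcript cluster, the set of probes summarised for 1 transcript) was annotated to that symbol alone. Of several clusters for a gene, that with the highest mean was taken. This gave 10 Srsf genes and 17 Hnrnp genes, 27 of the 19938 genes tested. Hnrnpa1, Hnrnpa3 and Hnrnph3 lay only on clusters shared with other symbols and are described apart from the members, and Srsf7 was not analysed here.

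DFMO blocks ornithine decarboxylase, the enzyme that makes putrescine. All cells were sorted for G1, and total RNA was measured on 12 whole-transcript arrays. The groups were untreated NIH3T3 cells (3 arrays, given as 0 h in the series text), and NIH3T3 cells kept in 1 mM DFMO for 12 h (2 arrays), 24 h (3 arrays), 48 h (2 arrays) and 96 h (2 arrays). The labels describe the arrays of a group as biological replicates, and precision is limited by how few there are. Cultures left untreated for longer were not analysed here, so time in culture and time in DFMO cannot be told apart. Every comparison with untreated cells shares the same 3 arrays.

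SR proteins bind exons and help the spliceosome recognise the neighbouring splice sites. Their tails, rich in arginine and serine, are phosphorylated by the SRPK and CLK kinases, which controls their import into the nucleus and their activity. hnRNPs coat nascent transcripts, and many of them silence splice sites or guide the packaging, export, stability and translation of the mRNA. Genes of both families are known to hold exons that carry early stop codons, so that part of their RNA is removed by nonsense-mediated decay. The deposited values summarise the probes of a cluster and do not separate such isoforms.

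At 96 h of DFMO, 7 of 10 Srsf genes fell and 0 rose, and 8 of 17 Hnrnp genes fell and 1 rose, Hnrnpc. These calls are from limma, a linear model fitted to all genes, at an adjusted p under 0.05 over all 19938 of them (2-sided). Of all genes tested, 10.1% were called lower and 11.8% higher, and of the 8418 genes with a mean level of at least 5 log2 units 21.9% were lower and 22.6% higher. The called falls were of 1.24- to 1.82-fold, and the estimate was below 0 for 24 of 27 members, against 48.6% of the genes with a mean of at least 5. The median log2 change was -0.73 over the Srsf genes and -0.44 over the Hnrnp genes, against 0.000347 over all genes and 0.0168 over those with a mean of at least 5. Both arrays at 96 h lay below all 3 untreated arrays for 21 of the 27 members and above them for 2, against 21.4% and 23% of all genes and, for lower, 34% of genes with a mean of at least 5. Of the 16 members called, 12 were called under each of 22 other settings, and the other 4 were Hnrnpul2 (21 settings), Srsf10 (17), Hnrnpa2b1 (16) and Hnrnpm (12).

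**Figure D1:**
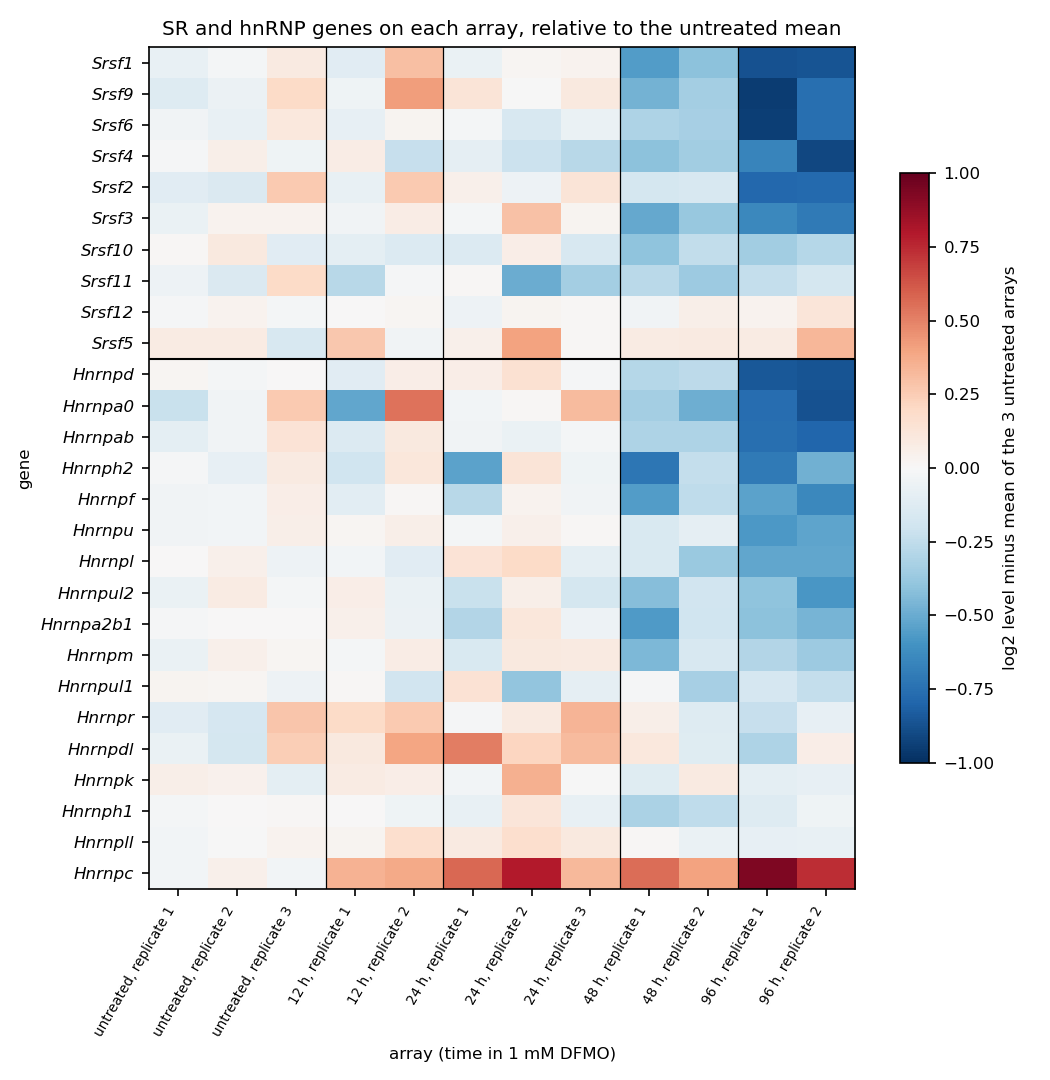
The heat map shows, for each of the 27 members (rows) on each of the 12 arrays (columns), the log2 level minus the mean of the 3 untreated arrays, with blue for lower and red for higher. At 96 h both columns are blue for 21 members at levels below every untreated array, and Hnrnpc is red in all DFMO columns.

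Proliferation transcripts fell in the same cells. Of 21 measured S phase and G2/M markers, 18 fell at 48 h and 21 at 96 h, and 0 rose by the same test. Their summed linear level was 1433 to 1460 per array at 96 h and 7633 to 8190 at 48 h, against 12580 to 14190 on the untreated arrays. Whether the part of cells outside G1 or a change within G1 cells bears on the Srsf and Hnrnp genes was not tested. In RNA pooled from many cells, fewer cells of a kind and less RNA per cell cannot be told apart. Of 12 fibroblast markers, all had mean levels above 5 log2 units in every group, and 6 fell and 1 rose at 96 h, with summed linear levels of 19700 to 21550 per array against 22560 to 23330 in untreated cells. By contrast, 10 of 11 leukocyte markers at 96 h and 11 of 11 in untreated cells were under 5. The exception was Lyz2, which rose by 1.90 on the log2 scale to 6.25 at 96 h. Of 12 epithelial and endothelial markers, 11 were under 5 in every group. The other, Krt14, fell by 1.82 ± 0.24 on the log2 scale at 96 h (SE, limma adjusted p = 0.000442), to 7.01 against 8.83 in untreated cells, and 2 of those under 5, Cdh1 and Tek, rose. The summed linear level of the list was 244.6 to 294.6 per array at 96 h against 507.3 to 703.5 in untreated cells, and its part in the results was not tested. Array medians were 4.13 to 4.2 log2 units, and the r between replicates, across genes, was 0.994 to 0.998. Untreated replicate 3 deviated from its group mean together with 24 h replicate 3 (r = 0.581 across genes) and 12 h replicate 2 (r = 0.318), and calls that change without these 3 arrays are named with the results. Replicates 1 and 2 at 48 h also deviated together with the same-numbered 24 h arrays (r = 0.35 and 0.419). Leaving those out as a set was not tested. In a group of 2 arrays the deviations from the mean mirror each other, so the 2 values for 48 h are not separate. For the same reason 12 h replicate 1 had r = -0.318 with untreated replicate 3.

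The promoters of the members in which the change over all times was clearest are shown here, the 2 Srsf and the 2 Hnrnp genes with the smallest F test p, together with Hnrnpc, which moved the opposite way. Each is the 250 bases before the transcription start, 5′ to 3′ on the gene's strand, from RefSeq (build GRCm38.p6). The Srsf6 stretch is chr2:162931258-162931507 on the plus strand, that of Srsf1 is chr11:88047123-88047372 on the plus strand, and that of Hnrnpd is chr5:99978939-99979188 on the minus strand. The Hnrnpu stretch is chr1:178337816-178338065 on the minus strand and the Hnrnpc stretch is chr14:52104022-52104271 on the minus strand. Capitals mark matches, on either strand, to any of 8 motifs that are defined after the sequences.
Srsf6: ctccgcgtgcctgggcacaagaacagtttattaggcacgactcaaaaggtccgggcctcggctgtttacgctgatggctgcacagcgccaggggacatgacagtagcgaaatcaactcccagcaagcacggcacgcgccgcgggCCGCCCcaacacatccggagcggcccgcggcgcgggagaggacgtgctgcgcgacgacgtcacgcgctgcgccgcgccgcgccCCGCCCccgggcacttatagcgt
Srsf1: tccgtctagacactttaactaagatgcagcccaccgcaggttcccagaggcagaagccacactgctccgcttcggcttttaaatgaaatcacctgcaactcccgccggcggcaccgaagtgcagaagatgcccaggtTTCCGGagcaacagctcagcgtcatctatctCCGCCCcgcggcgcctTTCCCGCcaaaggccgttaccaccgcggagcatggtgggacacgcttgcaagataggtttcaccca
Hnrnpd: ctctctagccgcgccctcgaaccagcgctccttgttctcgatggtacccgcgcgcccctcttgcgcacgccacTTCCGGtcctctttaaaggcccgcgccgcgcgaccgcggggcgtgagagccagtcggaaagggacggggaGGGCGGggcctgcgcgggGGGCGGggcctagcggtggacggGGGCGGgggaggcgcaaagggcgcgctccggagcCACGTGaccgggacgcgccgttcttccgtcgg
Hnrnpu: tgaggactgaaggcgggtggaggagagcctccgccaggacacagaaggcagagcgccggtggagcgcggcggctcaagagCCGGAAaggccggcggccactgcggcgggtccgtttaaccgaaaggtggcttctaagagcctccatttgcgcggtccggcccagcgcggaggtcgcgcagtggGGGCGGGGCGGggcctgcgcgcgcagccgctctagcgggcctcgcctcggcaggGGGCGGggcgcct
Hnrnpc: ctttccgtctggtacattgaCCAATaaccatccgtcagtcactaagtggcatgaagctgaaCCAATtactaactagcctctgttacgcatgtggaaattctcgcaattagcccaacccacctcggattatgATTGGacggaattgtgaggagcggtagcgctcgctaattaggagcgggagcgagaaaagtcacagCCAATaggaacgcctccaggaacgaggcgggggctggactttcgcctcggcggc

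The motifs were the E-box CACGTG, the NF-Y box CCAAT, the GC box GGGCGG, the ETS core CCGGAA, the NRF1 palindrome, an E2F-like site GCGGGAA, the cAMP response element TGACGTCA and the TATA box TATAAA. In these windows Srsf6 held 2 GC boxes, and Srsf1 held 1 GC box, 1 ETS core and 1 E2F-like site. Hnrnpd held 3 GC boxes, 1 ETS core and 1 E-box, and Hnrnpu 3 GC boxes and 1 ETS core. Hnrnpc held 4 NF-Y boxes and none of the other 7 motifs. Over the 25 members with an entry (the first listed for each gene), the GC box was present in 19, the NF-Y box in 13, the ETS core in 10 and the E2F-like site in 5. These are 76.0%, 52.0%, 40.0% and 20% of the members, against 46.0%, 35.5%, 16% and 5.33% of the promoters of 15614 tested genes. The TATA box was in 3 members (11.2% of all), the E-box in 1 (7.03%), and the NRF1 site and the cAMP response element in 0 (1.17% and 2.12%). Member promoters were richer in G and C, with a median of 65.2% against 56.4%, and 4 pairs of matches to different motifs overlapped. A match describes the letters and no binding was measured.

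Among the SR genes, Srsf1, Srsf9, Srsf6, Srsf4, Srsf2 and Srsf3 had the largest estimates at 96 h, from -0.87 to -0.67. Srsf1, which encodes a prototype SR protein that acts in constitutive and alternative splicing, had log2 levels of 9.78, 9.84 and 9.94 on the untreated arrays, 9.74 and 10.15 after 12 h, 9.79, 9.87 and 9.89 after 24 h, 9.29 and 9.45 after 48 h, and 8.98 and 8.99 after 96 h. The arrays up to 24 h overlapped, those at 48 h lay below all of them, and those at 96 h lay lower still. Srsf1 fell by 0.87 ± 0.11 (SE, limma) on the log2 scale at 96 h against untreated cells (1.82-fold, adjusted p = 0.000354, n = 2 against 3). Srsf6, which shares with Srsf1 a pair of RNA recognition motifs, had log2 levels of 9.36, 9.33 and 9.50 on the untreated arrays, 9.32 and 9.42 after 12 h, 9.38, 9.23 and 9.33 after 24 h, 9.09 and 9.07 after 48 h, and 8.45 and 8.64 after 96 h. Its order was the same, with no overlap between 96 h, 48 h and the earlier groups. It fell by 0.85 ± 0.08 at 96 h (1.80-fold, adjusted p = 5.25e-05).

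Srsf4, the member with a long arginine-serine tail, had log2 levels of 8.83, 8.90 and 8.81 on the untreated arrays, 8.92 and 8.62 after 12 h, 8.76, 8.63 and 8.57 after 24 h, 8.44 and 8.50 after 48 h, and 8.18 and 7.94 after 96 h. It was lowest at 96 h, and already at 24 h its 3 arrays lay below the untreated ones, a change of -0.19 that was not called (adjusted p = 0.634). The fall at 96 h was 0.79 ± 0.10 (limma adjusted p = 0.000456). Srsf9, a short SR protein related to Srsf1, had log2 levels of 7.89, 7.95 and 8.20 on the untreated arrays, 7.97 and 8.43 after 12 h, 8.14, 8.01 and 8.11 after 24 h, 7.55 and 7.68 after 48 h, and 7.06 and 7.26 after 96 h. The arrays at 48 h and 96 h lay below all others, while the 12 h pair was the most spread. Srsf9 fell by 0.85 ± 0.14 at 96 h (limma adjusted p = 0.00158).

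Srsf2, a component of nuclear speckles with a single RNA recognition motif, had log2 levels of 11.02, 10.99 and 11.39 on the untreated arrays, 11.06 and 11.40 after 12 h, 11.19, 11.09 and 11.26 after 24 h, 10.96 and 10.97 after 48 h, and 10.35 and 10.36 after 96 h. The 48 h arrays lay just under the lowest untreated array and the 96 h arrays well under it. Its fall at 96 h was 0.78 ± 0.13 (limma adjusted p = 0.00189). Srsf3, the smallest SR protein and an adaptor for mRNA export, had log2 levels of 11.01, 11.11 and 11.12 on the untreated arrays, 11.04 and 11.15 after 12 h, 11.06, 11.38 and 11.10 after 24 h, 10.57 and 10.70 after 48 h, and 10.44 and 10.37 after 96 h. It was lower at 48 h and 96 h than on any earlier array. Srsf3 fell by 0.67 ± 0.09 at 96 h (limma adjusted p = 0.000653).

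The remaining 4 SR genes had smaller estimates. Srsf10, which represses splicing when dephosphorylated, had log2 levels of 10.07, 10.16 and 9.94 on the untreated arrays, 9.96 and 9.92 after 12 h, 9.92, 10.12 and 9.90 after 24 h, 9.66 and 9.81 after 48 h, and 9.71 and 9.77 after 96 h. Its levels at 48 h and 96 h overlapped and lay below the earlier arrays, with a fall at 96 h of 0.31 ± 0.09 (limma adjusted p = 0.0265). That call ended without untreated replicate 1 or 2, without either array at 96 h and with a variance trend and robust shrinkage. The other Srsf10 cluster, described below, changed by -0.15 at 96 h and was not called with all clusters tested (limma adjusted p = 0.0912). Srsf11 had a log2 change of -0.21 at 96 h (95% interval -0.54 to 0.13, limma adjusted p = 0.45). Srsf5, a close relative of Srsf4 and Srsf6, had log2 levels of 10.27, 10.27 and 10.02 on the untreated arrays, 10.46 and 10.15 after 12 h, 10.24, 10.59 and 10.20 after 24 h, 10.27 and 10.28 after 48 h, and 10.27 and 10.52 after 96 h. Each DFMO group overlapped the untreated arrays, and its log2 change at 96 h was 0.20, with a 95% interval from -0.11 to 0.52 that excludes a fall as large as those of Srsf4 and Srsf6. Srsf12, which encodes an inhibitor of splicing related to Srsf10, had log2 levels of 3.40, 3.44 and 3.39 on the untreated arrays, 3.41 and 3.43 after 12 h, 3.36, 3.44 and 3.42 after 24 h, 3.38 and 3.47 after 48 h, and 3.45 and 3.53 after 96 h. All lay below 5 log2 units, where 57.8% of all genes had their mean, so a fall could not be read from it.

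**Figure D2:**
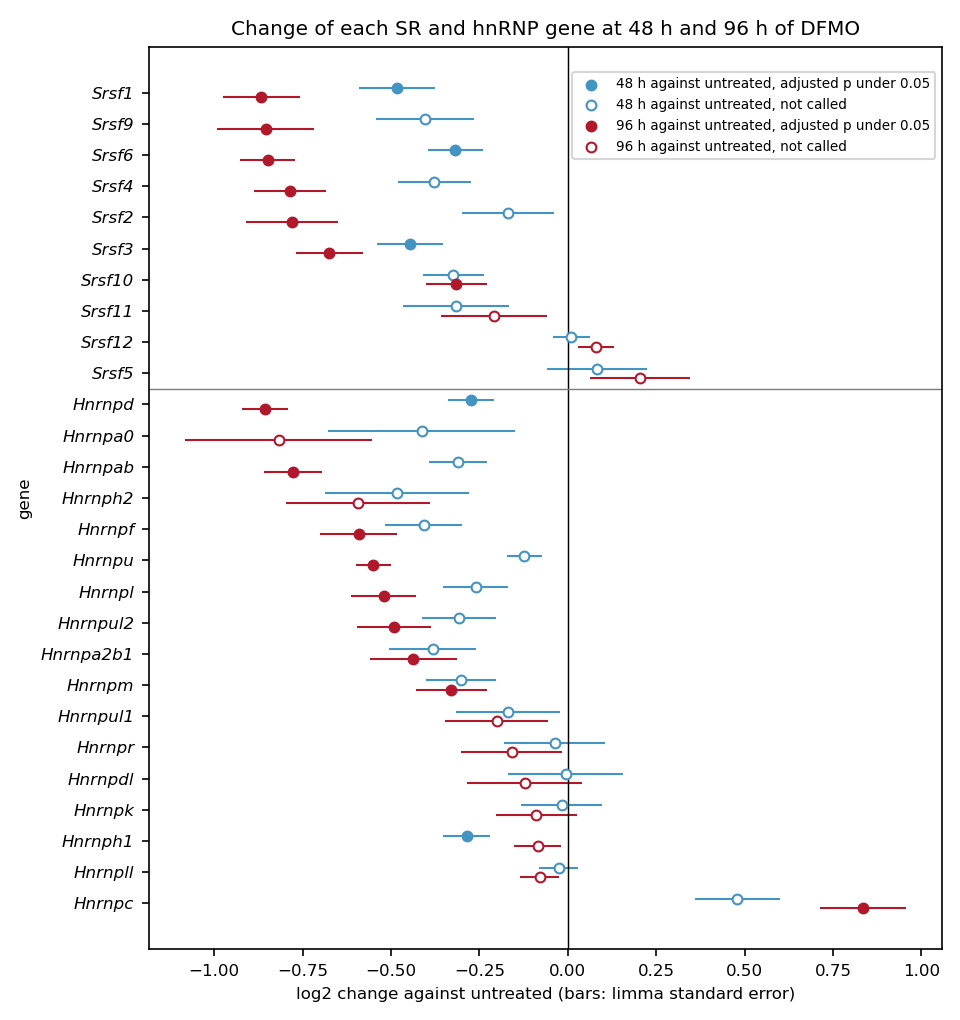
The dot plot gives the log2 change of each member against untreated cells at 48 h (blue, n = 2 against 3) and 96 h (red, n = 2 against 3) with limma standard errors, filled where the adjusted p is under 0.05. Srsf1 reaches -0.87 and Hnrnpd -0.86 at 96 h, while Hnrnpc at 0.84 is the only filled point to the right of 0.

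Among the hnRNP genes the log2 changes at 96 h ran from -0.86 for Hnrnpd to 0.84 for Hnrnpc. Hnrnpd, known for binding AU-rich elements and directing the decay of such mRNAs, had log2 levels of 10.51, 10.47 and 10.50 on the untreated arrays, 10.38 and 10.56 after 12 h, 10.56, 10.65 and 10.48 after 24 h, 10.21 and 10.23 after 48 h, and 9.65 and 9.63 after 96 h. The untreated, 12 h and 24 h arrays overlapped, and the pairs at 48 h and at 96 h each lay below all of them. Hnrnpd fell by 0.86 ± 0.07 at 96 h (1.81-fold, limma adjusted p = 1.65e-05), with the smallest F test p of the 27 members (9.43e-07). Hnrnpab, a close paralogue of Hnrnpd, had log2 levels of 11.12, 11.18 and 11.35 on the untreated arrays, 11.07 and 11.31 after 12 h, 11.18, 11.15 and 11.19 after 24 h, 10.91 and 10.90 after 48 h, and 10.46 and 10.42 after 96 h. Its arrays at 48 h and 96 h lay below all earlier ones, and it fell by 0.78 ± 0.08 at 96 h (limma adjusted p = 0.000129). The third of these paralogues, Hnrnpdl, had a log2 change of -0.12 at 96 h (95% interval -0.49 to 0.24, limma adjusted p = 0.731), and its arrays at 96 h overlapped the untreated ones.

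Hnrnpu, a nuclear scaffold protein that binds RNA and chromatin, had log2 levels of 11.68, 11.69 and 11.77 on the untreated arrays, 11.74 and 11.77 after 12 h, 11.69, 11.77 and 11.73 after 24 h, 11.56 and 11.62 after 48 h, and 11.14 and 11.19 after 96 h. Only the 96 h arrays stood well apart, and the fall of 0.55 ± 0.05 was small against a narrow spread (limma adjusted p = 4.8e-05). Its relative Hnrnpul2 had log2 levels of 9.56, 9.71 and 9.61 on the untreated arrays, 9.70 and 9.56 after 12 h, 9.41, 9.69 and 9.45 after 24 h, 9.21 and 9.44 after 48 h, and 9.22 and 9.05 after 96 h. The 48 h and 96 h arrays overlapped each other, and its fall at 96 h was 0.49 ± 0.10 (limma adjusted p = 0.00743), a call that ended without replicate 2 of the 96 h group. Hnrnpul1, another relative, had log2 levels of 8.92, 8.91 and 8.84 on the untreated arrays, 8.90 and 8.70 after 12 h, 9.04, 8.49 and 8.80 after 24 h, 8.88 and 8.56 after 48 h, and 8.72 and 8.65 after 96 h. Its log2 change at 96 h was -0.20 (95% interval -0.53 to 0.13, limma adjusted p = 0.453).

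Hnrnpl, which binds CA-rich RNA, had log2 levels of 9.83, 9.87 and 9.77 on the untreated arrays, 9.80 and 9.71 after 12 h, 9.96, 10.02 and 9.73 after 24 h, 9.67 and 9.46 after 48 h, and 9.31 and 9.31 after 96 h. The 96 h arrays gave nearly the same value, below all others, and Hnrnpl fell by 0.52 ± 0.09 (limma adjusted p = 0.00271). Its paralogue Hnrnpll, best known for regulating Cd45 splicing in lymphocytes, had a log2 change of -0.08 (95% interval -0.20 to 0.04, limma adjusted p = 0.428). Hnrnpm, a nuclear regulator of alternative splicing, had log2 levels of 10.85, 10.97 and 10.94 on the untreated arrays, 10.89 and 10.99 after 12 h, 10.76, 11.01 and 11.01 after 24 h, 10.47 and 10.76 after 48 h, and 10.62 and 10.56 after 96 h. Its levels at 48 h and 96 h overlapped, and the fall of 0.33 ± 0.10 at 96 h was the nearest to the threshold of those called (limma adjusted p = 0.0413). Hnrnpa2b1, an mRNA transport and splicing factor, had log2 levels of 10.25, 10.26 and 10.27 on the untreated arrays, 10.31 and 10.20 after 12 h, 9.97, 10.37 and 10.21 after 24 h, 9.69 and 10.06 after 48 h, and 9.85 and 9.79 after 96 h. The arrays at 48 h and 96 h overlapped and lay below the untreated ones, and its fall at 96 h was 0.44 ± 0.12 (limma adjusted p = 0.031). The calls of Hnrnpm and Hnrnpa2b1 ended without any 1 of the 3 untreated arrays and without either array at 96 h, and also without the 3 arrays that deviated together. That of Hnrnpm also ended with all clusters tested, with array weights and without either 12 h array.

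The F/H group, whose proteins bind runs of guanines, had 1 member called at 96 h. Hnrnpf had log2 levels of 11.31, 11.32 and 11.41 on the untreated arrays, 11.23 and 11.35 after 12 h, 11.06, 11.38 and 11.31 after 24 h, 10.79 and 11.09 after 48 h, and 10.80 and 10.70 after 96 h. The 48 h and 96 h groups overlapped, and Hnrnpf fell by 0.59 ± 0.11 at 96 h (limma adjusted p = 0.0036). Hnrnph1 had log2 levels of 10.68, 10.70 and 10.71 on the untreated arrays, 10.70 and 10.65 after 12 h, 10.62, 10.82 and 10.62 after 24 h, 10.38 and 10.45 after 48 h, and 10.57 and 10.66 after 96 h. It was lowest at 48 h, where it fell by 0.29 ± 0.07 (limma adjusted p = 0.037), and at 96 h it lay between the 48 h and the untreated levels, with a log2 change of -0.09 against untreated cells (adjusted p = 0.495). The difference of 96 h against 48 h was 0.20 ± 0.07 and was not called (adjusted p = 0.141). Hnrnph2 had a log2 change of -0.59 at 96 h, with mean levels of 9.06 ± 0.16 at 96 h against 9.65 ± 0.09 in untreated cells (SD, n = 2 and 3), and missed the threshold (limma adjusted p = 0.0679).

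Hnrnpk, a binder of C-rich RNA and the member with the highest signal (which depends on its probes as well as on its RNA), had log2 levels of 12.10, 12.09 and 11.94 on the untreated arrays, 12.12 and 12.10 after 12 h, 12.02, 12.40 and 12.04 after 24 h, 11.92 and 12.13 after 48 h, and 11.95 and 11.96 after 96 h. The 96 h arrays lay within the untreated range, and its log2 change at 96 h had a 95% interval from -0.34 to 0.17 (limma adjusted p = 0.717). Hnrnpa0, which binds AU-rich mRNAs, had an estimate as large as the called members (-0.82, 95% interval -1.41 to -0.22) but a wide spread, and missed the threshold (limma adjusted p = 0.0546), though it was called without the 3 arrays that deviated together. Its 12 h arrays, at 7.80 and 8.87, differed by more than the 96 h and untreated means. Hnrnpr, related to the translation regulator Syncrip, had a log2 change of -0.16 (95% interval -0.48 to 0.16, limma adjusted p = 0.57).

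Hnrnpc was the only member called higher. Its protein binds uridine tracts of nascent transcripts and measures their length, and keeps unspliced RNA in the nucleus. Hnrnpc had log2 levels of 9.26, 9.34 and 9.26 on the untreated arrays, 9.63 and 9.66 after 12 h, 9.86, 10.08 and 9.61 after 24 h, 9.84 and 9.69 after 48 h, and 10.22 and 10.02 after 96 h. All arrays of every DFMO group lay above all untreated arrays. The log2 change was 0.36 at 12 h (limma adjusted p = 0.989), 0.56 at 24 h (adjusted p = 0.262) and 0.48 at 48 h (adjusted p = 0.0508), none of them called. At 96 h it rose by 0.84 ± 0.12 (1.79-fold, limma adjusted p = 0.000836, n = 2 against 3).

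**Figure D3:**
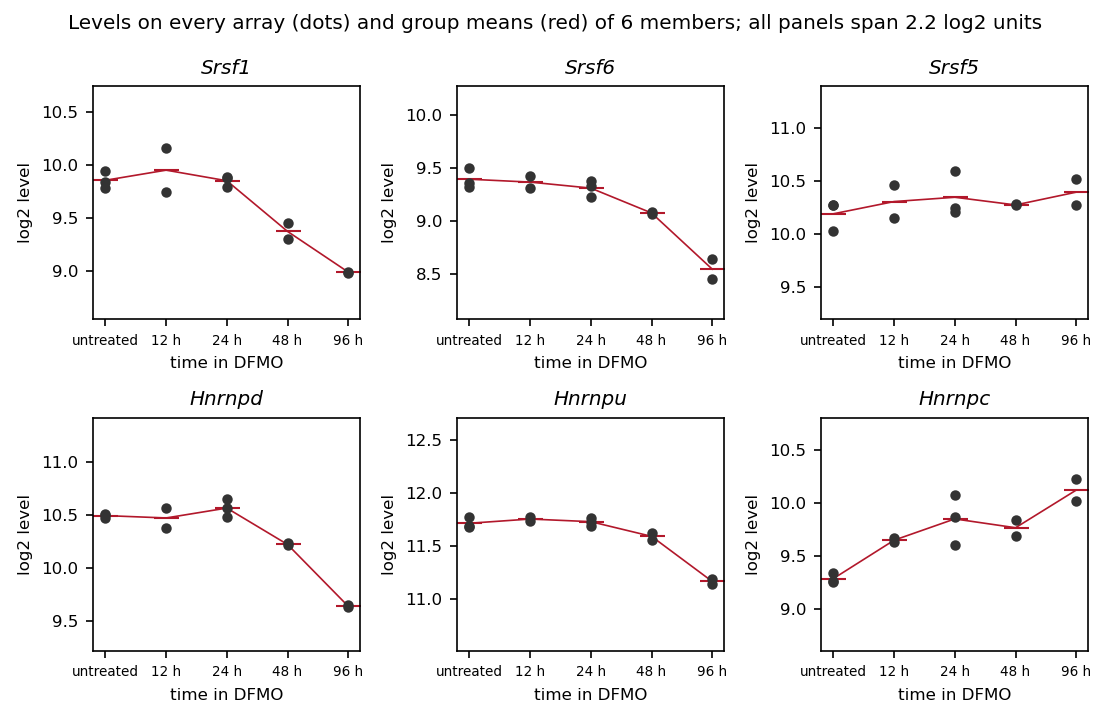
The panels plot the log2 level on each array (dots) and the group mean (red) of Srsf1, Srsf6, Srsf5, Hnrnpd, Hnrnpu and Hnrnpc for untreated cells and for 12, 24, 48 and 96 h in DFMO. The 96 h arrays of Srsf1 lie at 8.98 and 8.99 and those of Hnrnpc at 10.22 and 10.02, on opposite sides of their untreated arrays.

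Neither family showed a call in the first day. At 12 h and at 24 h limma called 0 of 27 members and 0% of all genes. At an unadjusted p under 0.05 there were 1 member at 12 h and 3 at 24 h (Hnrnpc, Hnrnpll and Hnrnpdl, all higher), against 3.72% and 7.92% of all genes. At 12 h both arrays lay above all untreated ones for 2 members (Hnrnpc and Hnrnpk) and below them for 0, against 6.35% and 11.7% of all genes. At 24 h this held for 2 (Hnrnpc and Hnrnpll) and 1 (Srsf4), against 4.48% and 9.26%. Median log2 changes over the 27 members were 0.01 at both times.

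At 48 h the falls had begun but were small. Limma called 5 of 27 members lower (Srsf1, Srsf3, Srsf6, Hnrnpd and Hnrnph1) and 0 higher, against 3.17% and 2.65% of all genes and 6.7% and 5.46% of those with a mean of at least 5. Srsf1 fell by 0.48 ± 0.11 (adjusted p = 0.0321), Srsf3 by 0.45 ± 0.09 (0.0242), Srsf6 by 0.32 ± 0.08 (0.0441) and Hnrnpd by 0.27 ± 0.07 (0.0406). The estimate was below 0 for 24 of 27 members, against 47.6% of genes with a mean of at least 5. In 19 members both 48 h arrays lay below all untreated arrays, against 25.2% of all genes and 24.9% of those with a mean of at least 5. Hnrnpc alone had both above, against 15.7%. The median log2 change was -0.30 over the members, -0.02 over all genes and 0.018 over those with a mean of at least 5. Of all called genes 45.5% were higher, and 60.4% were with arrays centred on their medians, where 1 member was lower (Srsf3) and 1 higher (Hnrnpc). No 48 h call held under every setting. That of Srsf3 ended with the mean of all clusters of a gene, and 1 of its clusters changed by only -0.08 at 48 h. The count of 5 became 0 without untreated replicate 2 or either 48 h array, 1 without untreated replicate 1, and 3 without either 96 h array. Without untreated replicate 3 none of the 5 was called and Srsf10 was. Without the 3 arrays that deviated together Srsf1 and Hnrnpd stayed called and Hnrnpab was added. With the replicate number as a block, Srsf6 was not called (-0.29, adjusted p = 0.0792), while Srsf4 (-0.41, adjusted p = 0.0434) and Srsf10 (-0.37, adjusted p = 0.0146) were.

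The decline continued in some members between 48 h and 96 h. Limma called 5 members lower at 96 h than at 48 h and 0 higher, against 4.29% and 4.35% of all genes (9.68% and 7.65% of those with a mean of at least 5), and they were Srsf2, Srsf6, Hnrnpab, Hnrnpd and Hnrnpu. Srsf2 fell by 0.61 and Hnrnpd by 0.58 in this step. The count was 3 without either array of 48 h or of 96 h, where Srsf2 and Hnrnpab were lost, and 8 without either 12 h array, where Srsf1, Srsf4 and Srsf9 were added, and 9 without the 3 arrays that deviated together, with Hnrnpa0 as well. In the step to 48 h from 24 h, Srsf3 and Hnrnpd were called lower and 0 higher, against 1.14% and 0.527% of all genes (2.6% and 1.13% of those with a mean of at least 5), though neither call held without either 48 h array. Without the 3 arrays that deviated together the Srsf3 call ended and Srsf1 was called. The Hnrnpd call in this step also ended without any 1 untreated or 96 h array and without replicate 1 or 2 at 24 h. At 24 h against 12 h 0 were called (0% of all genes, 0 members at an unadjusted p under 0.05). Over all 4 times together, limma's F test called 6 Srsf and 7 Hnrnp genes, against 17% of all genes. Most members are not dim, and with genes under a mean of 5 left out it called 14 members and 3302 of 8418 genes.

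For the genes with several clusters, the estimates at 96 h had the same sign on each cluster, but not always the same call. The 3 Srsf3 clusters had log2 changes at 96 h of -0.74 to -0.60 and the 4 Hnrnpf clusters of -0.66 to -0.59, with each of these 7 called when all 35399 clusters were tested together (7.12% of clusters lower and 7.77% higher). At 48 h the Srsf3 clusters ran from -0.45 to -0.08, with 2 of the 3 called (1.79% of clusters lower and 1.31% higher). The Srsf10 cluster that was not used had a log2 change of -0.15 at 96 h and was not called (adjusted p = 0.0912), against -0.31 (0.0431) for the used one, and at 48 h the 2 had -0.05 and -0.32. For Hnrnph2 the cluster that was not used passed that test (-0.70, adjusted p = 0.0434) and the used one did not. The 3 Hnrnpk clusters lay between -0.09 and -0.06 and both Srsf5 clusters at 0.20 and 0.22, none of them called. Whether such clusters measure separate loci or the same RNA was not tested.

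Hnrnpa1 and Hnrnpa3, core packaging proteins of the hnRNP particle, could be read only from clusters that carry other symbols as well. The 5 clusters with Hnrnpa1 had untreated means of 10.25 to 11.67 and log2 changes at 96 h between -0.20 and -0.16, with the smallest adjusted p at 0.207. The 9 clusters with Hnrnpa3, of which 8 held distinct values, had changes between -0.46 and -0.33 (smallest adjusted p = 0.0774). The cluster shared by Hnrnph3 and Aff3 had a change of 0.57 (adjusted p = 0.0777). Their signal cannot be assigned to 1 gene.

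**Figure D4:**
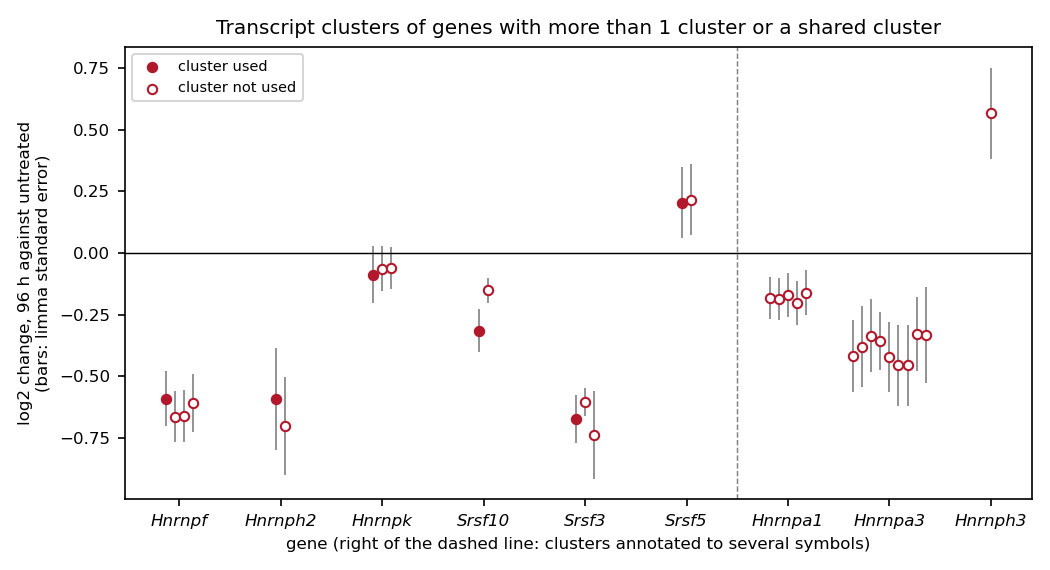
The plot gives the log2 change at 96 h against untreated cells, with limma standard errors, for each transcript cluster of the genes that had several clusters or a shared one. The filled point is the cluster used, and the Srsf3 clusters lie between -0.74 and -0.60 while those with Hnrnpa1 lie between -0.20 and -0.16.

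Other parts of the splicing machinery were examined through lists chosen by role. Their calls at 96 h are read against 10.1% lower and 11.8% higher of all genes. Of genes with a mean of at least 5 the shares were 21.9% and 22.6%. Among hnRNP proteins that carry other symbols, 11 of 14 measured genes fell at 96 h and 0 rose (median -0.44). Raly, a relative of Hnrnpc, fell by 0.96 ± 0.11 (limma adjusted p = 0.000231), Tardbp, which represses cryptic exons, by 0.73 ± 0.11 (0.000933), Ptbp1, the polypyrimidine tract repressor, by 0.68 ± 0.09 (0.000414), and its paralogue Ptbp3 by 0.39 ± 0.07 (0.00381). Of 17 SR-related and exon junction factors, 8 fell and 0 rose (median -0.25). Eif4a3, the helicase of the exon junction complex, fell by 0.74 ± 0.14 (0.00366), the splicing activator Tra2b by 0.67 ± 0.09 (0.000494), Acin1 by 0.58 ± 0.06 (7.28e-05) and Scaf11 by 0.50 ± 0.05 (9.15e-05).

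Core spliceosome subunits were mixed, with 19 of 49 lower and 4 higher at 96 h (median -0.24). Snrpa1, a protein of the U2 particle, fell by 1.57 ± 0.08 (limma adjusted p = 1.39e-06), and Lsm2 and Lsm3, which belong to the ring on U6 RNA, fell by 1.14 ± 0.13 (0.000223) and 0.82 ± 0.12 (0.00103). Snrnp200, the helicase that unwinds the U4/U6 duplex, rose by 0.70 ± 0.09 (0.000435). Of 30 other alternative splicing regulators 8 fell and 4 rose (median -0.09). That count of falls lay near the share of genes with a mean of at least 5 that were lower (21.9%), and 22.6% of those were higher. Among these regulators Sfpq was lower by 1.17 ± 0.11 (5.92e-05), its paraspeckle partner Nono by 0.48 ± 0.06 (0.000317), Mbnl3 by 1.13 ± 0.09 (2.66e-05) and Fubp1 by 0.95 ± 0.10 (0.000157).

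The lists of SR kinase and import genes and of nonsense-mediated decay factors were short, with 10 and 7 genes measured. For comparison, 22.6% of genes with a mean of at least 5 were higher at 96 h and 21.9% lower. Of 10 measured SR kinase and import genes, 3 rose at 96 h and 0 fell (median 0.06). The kinase genes were Clk4 (0.78 ± 0.13, limma adjusted p = 0.00227), Srpk2 (0.67 ± 0.08, 0.000178) and Clk1 (0.62 ± 0.12, 0.00576), while Tnpo1, an import receptor, had a log2 change of -0.24 (0.0863). Of 7 measured nonsense-mediated decay factors, 4 rose and 0 fell (median 0.35). Smg9 rose by 0.94 ± 0.15 (0.0016), the endonuclease gene Smg6 by 0.80 ± 0.10 (0.000366), Upf2 by 0.61 ± 0.09 (0.000966) and the helicase gene Upf1 by 0.33 ± 0.10 (0.0442). Among 10 arginine methyltransferase genes, whose products modify many hnRNPs, 2 fell and 1 rose. Prmt1 and Carm1 fell by 0.54 ± 0.11 (0.00575) and 0.79 ± 0.17 (0.00901) and Prmt2 rose by 1.21 ± 0.23 (0.00409), while Prmt7 had a log2 change of 0.33 (0.152). At 48 h, 4 of 17 SR-related, 4 of 49 spliceosome, 2 of 30 other regulator and 0 of 14 other-symbol hnRNP genes were lower. Higher were 2 of 7 decay factors, 1 of 10 SR kinase and import genes (Srpk2), 1 of 10 methyltransferases and 1 of 30 other regulators. Of all genes 3.17% were lower and 2.65% higher, and of those with a mean of at least 5 the shares were 6.7% and 5.46%. The spliceosome and other regulator counts lay near these last shares.

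**Figure D5:**
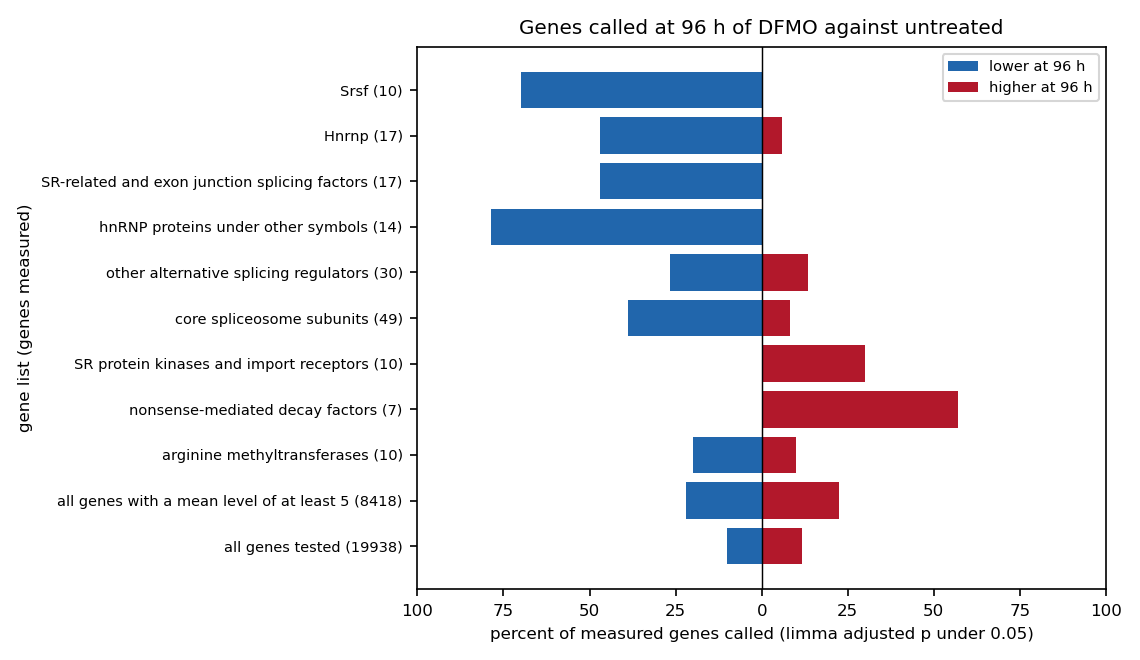
The bars give the percent of measured genes of each list called lower (blue, to the left) or higher (red, to the right) at 96 h against untreated cells, with the number measured in parentheses. Of all genes tested 10.1% were lower and 11.8% higher, of those with a mean of at least 5 the shares were 21.9% and 22.6%, and the Srsf and Hnrnp bars extend mainly to the left.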

How the data were processed

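RNA of 12 samples was measured on Affymetrix MoGene 1.0 ST arrays. The authors deposited log2 values per transcript cluster, and the submitters' processing notes name RMA and Partek without saying what each did. Depth does not apply to arrays; background signal was not analysed here. Symbols came from the platform annotation: 21789 of 35399 clusters had 1 symbol, 1621 several and 11989 none.

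Groups followed the labels. limma 3.58.1 (R 4.3.3) was fitted with 1 mean per group over all 12 arrays, with empirical Bayes moderation and Benjamini-Hochberg adjustment over 19938 genes, after a test on simulated data. Values for every array are given for the 16 called members with the smallest F test p and the 3 members each with the highest level and the largest F test p, and of each list the 4 genes with the smallest F test p are named. Hnrnpa2b1's values and Hnrnpc's promoter were added after their values were seen. The members and lists were chosen with earlier results of these data known. Promoters were read from RefSeq, for 25 of 27 members. Alternatives covered clusters, dim genes, scaling, array weights, variance shrinkage, a replicate block, groups and single arrays.

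Replicate numbers recur between groups. Deviations of same-numbered arrays correlated at 0.153, 0.287 and 0.581 across genes between 24 h and untreated cells. Between 48 h and 24 h they correlated at 0.35 and 0.419. Each of these pairs lay above 0.1, so the numbers may be paired in both comparisons, which these values cannot settle. With 2 arrays at 48 h the deviations mirror each other, so its 2 values are not separate. Against untreated cells, same-numbered pairs correlated at 0.189 and -0.255 at 12 h and at -0.136 and -0.0798 at 96 h. Some different-numbered pairs also did (0.235 for 24 h replicate 2 with untreated replicate 1), and others were negative. At 24 h against untreated cells no member was called with or without the block. At 48 h against 24 h Srsf3 and Hnrnpd were called with and without it.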

Additional observations from a re-analysis of the deposited data

Results flagged for a closer look

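These results were picked out because the change against untreated cells differed between successive times by a direct test of that difference (limma, adjusted over all genes). At 48 h against 24 h, the log2 change was -0.545 ± 0.094 for Srsf3 (SE, adjusted p = 0.0223) and -0.344 ± 0.065 for Hnrnpd (adjusted p = 0.0337). At 96 h against 48 h the changes were -0.611 ± 0.14 for Srsf2 (adjusted p = 0.0276), -0.584 ± 0.071 for Hnrnpd (0.000996), -0.531 ± 0.085 for Srsf6 (0.00459), -0.466 ± 0.09 for Hnrnpab (0.0118) and -0.426 ± 0.054 for Hnrnpu (0.00133). In each case all arrays of the later time lay below all arrays of the earlier one. Picking genes called lower in that same step makes this likely, so it adds no separate support. Hnrnpd was called in both steps. Without the 3 arrays that deviated together, Srsf3 was not called at 48 h against 24 h. No group had more than 3 arrays, so no result was picked for a single outlying array. How calls changed with single arrays left out is given with the results and below.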

How the results depend on the processing

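With 2 or 3 arrays a group, 48 h calls depended on the processing more than 96 h calls; why was not tested. Of 22 settings, members lower at 48 h numbered 1 with all clusters tested or arrays centred, 2 without genes under a mean of 5 or with trend and robust shrinkage, 3 without the 3 arrays that deviated together, and 9 with array weights, against 5 as reported (0 to 6 with single arrays left out). Hnrnpc made 1 higher at 48 h without dim genes, with centring, array weights, trend and robust shrinkage or only the compared groups (0 to 1 with single arrays left out). At 48 h against 24 h the count of 2 became 1 with all clusters, without dim genes, with centring or with trend and robust shrinkage, and 0 with only the compared groups (0 to 3 with single arrays left out). At 96 h against 48 h the count of 5 became 9 without the 3 arrays (3 to 8 with single arrays left out). At 96 h, 11 to 16 were lower with single arrays left out, and the F test called 9 to 15. With the replicate number as a block, 6 were called at 48 h, 17 at 96 h (Hnrnph2 added, -0.54, adjusted p = 0.0279) and 7 at 96 h against 48 h (Srsf1 and Srsf4 added). The F test called 14. Beyond these and the changes at 48 h given above, it altered no call at a single time against untreated cells. No called change reversed its sign. Among uncalled estimates, Hnrnpdl, Hnrnpk, Hnrnpr, Hnrnpll and Srsf12 at 48 h and Hnrnpdl at 96 h (-0.31 to 0.07) crossed 0 under some settings.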
